A study of Homo sapiens with 8 samples.

Results

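The genes of cholesterol and fatty acid synthesis and of their regulators were followed in RNA-seq of 4 groups of human ovarian cancer cells. The set held 33 genes, chosen by symbol from the 32803 gene symbols of the deposited count table, and all 33 were measured and passed the filter on low counts. By role, 7 genes lead from acetyl-CoA through mevalonate to farnesyl diphosphate, 11 lead from there through squalene to cholesterol, 5 control or carry sterols and 10 make, elongate or desaturate fatty acids or supply their acetyl-CoA. The 11 genes are called those from squalene to cholesterol below, and include FDFT1, which makes squalene. The study asked how cells that withstand PARP inhibitors differ from the cells they came from. PARP inhibitors act on enzymes that mark damaged DNA, and they kill best where homologous recombination, the repair route that needs BRCA1, has failed. UWB1.289 is an ovarian cancer cell line without functional BRCA1, and UWB1.289+BRCA1 is the same line with BRCA1 restored. The 4 groups, with 2 libraries each, were PARP inhibitor-resistant BRCA1-deficient cells (resistant UWB1.289, passage 56), parental BRCA1-deficient cells (UWB1.289, passage 29), PARP inhibitor-resistant BRCA1-proficient cells (resistant UWB1.289+BRCA1, passage 45) and parental BRCA1-proficient cells (UWB1.289+BRCA1, passage 10). Sample titles mark the resistant lines by the prefix Olres. All groups were grown in standard medium without drug, so no library was made from cells under treatment. Passage rose together with resistance in both lines, and their effects cannot be told apart. The labels do not say whether a resistant line is 1 clone or a pool, nor whether the libraries of a group came from separate cultures, so the spread behind each p-value is that between libraries and may be technical.

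Cholesterol is built in the cytosol and endoplasmic reticulum from acetyl-CoA, which is condensed to HMG-CoA, carried through mevalonate to isoprenoid diphosphates, joined to squalene, closed to lanosterol and trimmed to cholesterol. Fatty acids are built from the same acetyl-CoA through malonyl-CoA and are then elongated and desaturated. Both routes are switched on by the SREBP transcription factors, which SREBF1 and SREBF2 encode. SREBPs stay in the endoplasmic reticulum bound to SCAP while sterols are plentiful and INSIG proteins hold SCAP back, and are cut free and move to the nucleus when sterols are scarce. INSIG1 is itself an SREBP target and so is read as a gauge of the pathway. Tumour cells commonly rely on their own lipid synthesis.

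The promoters of the 4 genes that differed most between the resistance responses of both lines, by smallest p and with an entry in the table of promoters used, are printed because SREBPs act there together with NF-Y, a factor that binds CCAAT. Each run holds 250 bases before and 50 after the first listed start of the gene, from RefSeq on GRCh38.p14, and capitals mark CCAAT, or ATTGG where it lies on the other strand.
HMGCS1 (chr5:43313363-43313662, minus strand): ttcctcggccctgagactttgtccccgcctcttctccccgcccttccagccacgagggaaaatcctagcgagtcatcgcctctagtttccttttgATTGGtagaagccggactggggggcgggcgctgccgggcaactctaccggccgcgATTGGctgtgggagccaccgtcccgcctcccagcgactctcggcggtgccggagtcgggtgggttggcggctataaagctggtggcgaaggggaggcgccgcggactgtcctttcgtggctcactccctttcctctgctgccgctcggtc
SCD (chr10:100346983-100347282, plus strand): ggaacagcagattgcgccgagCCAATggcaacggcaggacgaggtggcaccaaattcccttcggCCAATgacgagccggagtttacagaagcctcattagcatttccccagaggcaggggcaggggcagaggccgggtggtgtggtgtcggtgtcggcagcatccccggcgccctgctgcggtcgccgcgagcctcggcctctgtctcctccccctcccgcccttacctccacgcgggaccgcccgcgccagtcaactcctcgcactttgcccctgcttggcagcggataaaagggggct
INSIG1 (chr7:155297628-155297927, plus strand): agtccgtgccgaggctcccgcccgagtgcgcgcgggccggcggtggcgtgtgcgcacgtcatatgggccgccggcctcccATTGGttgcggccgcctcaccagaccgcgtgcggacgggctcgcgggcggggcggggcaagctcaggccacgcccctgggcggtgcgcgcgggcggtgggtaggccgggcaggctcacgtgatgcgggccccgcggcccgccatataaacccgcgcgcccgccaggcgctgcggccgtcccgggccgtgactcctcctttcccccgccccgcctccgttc
ELOVL6 (chr4:110198566-110198865, minus strand): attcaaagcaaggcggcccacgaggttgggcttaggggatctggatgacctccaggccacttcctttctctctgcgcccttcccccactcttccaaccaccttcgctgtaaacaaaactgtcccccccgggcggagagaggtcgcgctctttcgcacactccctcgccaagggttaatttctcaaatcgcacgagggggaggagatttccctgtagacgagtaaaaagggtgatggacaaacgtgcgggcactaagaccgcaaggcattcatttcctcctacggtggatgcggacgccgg
The HMGCS1 and SCD windows each held 2 matches to CCAAT, the INSIG1 window held 1 and the ELOVL6 window held 0. Of the 33 genes, 28 had a promoter in this table, and CCAAT on either strand stood in 19 of those 28 (67.9%), against 35.7% of 27305 promoters of the same length. The sterol element TCACNCCAC on either strand stood in 1 of the 28 windows, that of SREBF2, against 1.15% of all promoters. The search allowed no mismatch, and these matches describe letters in the windows.

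Libraries held 24094821 to 34394107 counts, and the 20 most abundant genes took 7.23% to 7.74% of each. BRCA1, the gene that sets the lines apart, had 34.7 and 34.8 CPM (counts scaled to a common library total) in resistant deficient, 36.1 and 35.1 CPM in parental deficient, 2176 and 2365 CPM in resistant proficient and 212 and 191 CPM in parental proficient cells. From parental to resistant cells, BRCA1 rose in the proficient line (log2 fold change 3.49, edgeR adjusted p = 1.06e-10). It did not pass in the deficient line (-0.04, 0.714). Effects of resistance in the proficient line, and their differences from the deficient line, cannot be told apart from those of this rise. Of 9 epithelial and ovarian carcinoma markers, 0 were absent from a group, with summed levels of 3742 to 8184 CPM, whereas leukocyte markers summed to 4.68 to 27.7 CPM, endothelial markers to 2.49 to 45.3 CPM and fibroblast markers to 4.40 to 58.0 CPM. Of the carcinoma markers, WT1 had 7.84 and 9.16 CPM in resistant proficient cells and 0 to 0.277 CPM in the other libraries. LUM and DCN, which mark fibroblasts, had 0 counts in every library outside parental proficient cells. COL1A2, of the same marker list, went the other way. COL1A2 had 56.1 and 47.1 CPM in parental deficient and 46.2 and 46.6 CPM in parental proficient cells. In resistant cells it had 1.30 and 0.723 CPM in the deficient and 28.9 and 28.1 CPM in the proficient line. CDH5, an endothelial marker, had 33.9 to 39.6 CPM in the deficient and 0.484 to 1.94 CPM in the proficient line. Of the leukocyte markers, CD14 had 22.0 and 20.6 CPM in resistant proficient cells and 0.287 to 2.80 CPM in the other libraries. PTPRC, of the same list, had 3.49 to 13.3 CPM. In bulk RNA, fewer cells with a message and less message per cell cannot be told apart. The resistant deficient libraries stood apart in spread, with a chi-square per degree of freedom between replicates of 23.4, against 4.26 to 8.87 in the other groups.

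The libraries also differed by base composition. Among genes above 58.5% GC, the median deviation from the mean of all libraries was 1.16 and 0.740 on the log2 scale in resistant deficient libraries, 0.240 and 0.0828 in parental deficient, -0.353 and -0.664 in resistant proficient, and -0.665 and -0.485 in parental proficient libraries. Across 15665 genes, the rank correlation of the log2 fold change with transcript GC content was 0.46 for resistance in deficient cells and 0.09 in proficient cells. Across the 33 synthesis genes it was 0.67 in deficient and 0.06 in proficient cells, and 0.16 and -0.06 after each library's trend on GC content had been removed. Fold changes below are therefore given from the counts as deposited, with values from the fit with the GC trend removed (called GC-corrected) beside those the results turn on. The part of base composition in the uncorrected values was not tested. Levels in CPM carry no GC correction unless they are called GC-corrected.

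**Figure D1:**
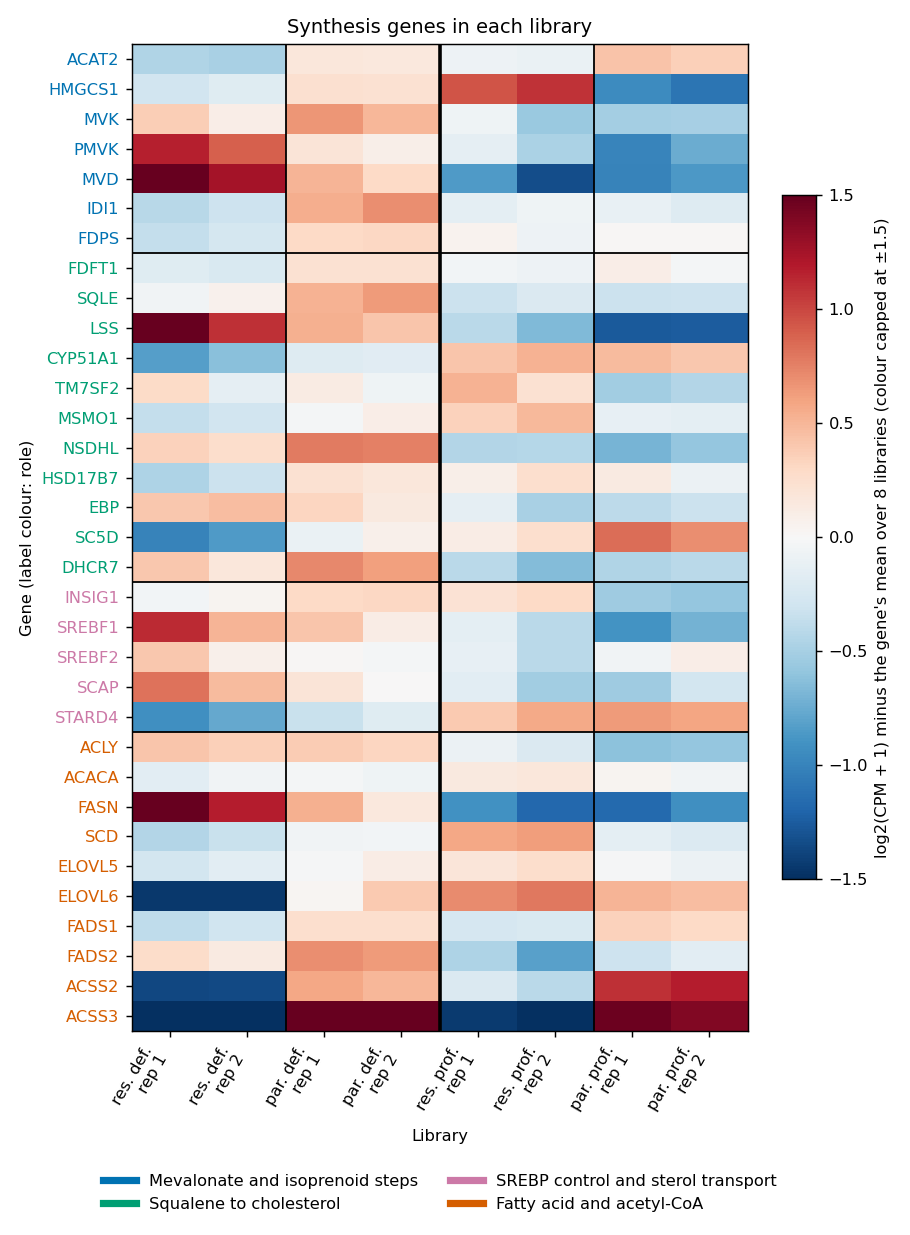
Heat map of the 33 genes (rows, grouped and coloured by role) in the 8 libraries (columns), as log2(CPM + 1) minus the gene's mean over all libraries, with colour capped at ±1.5. HMGCS1 is red in resistant proficient libraries and blue in parental proficient ones. SCD and INSIG1 lie above their mean in the former and below it in the latter, SCD only slightly below. SCD is lowest in resistant deficient libraries, and INSIG1 is also above its mean in parental deficient ones. ACSS2 and ACSS3 are blue in the resistant libraries of both lines.

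In the BRCA1-deficient line most synthesis genes were lower in resistant than in parental cells. Of the 33 genes, 21 fell, 6 rose and 6 did not pass (edgeR's quasi-likelihood test, Benjamini-Hochberg adjusted p under 0.05), with a median log2 fold change of -0.38, against 0.03 over all 16221 genes tested. Among all genes, 27% fell and 28.9% rose. With the GC trend removed, 22 fell and 5 rose (median -0.28, against 27.6% and 31.9% of 15665 genes), and the calls shared by both fits were 18 falls and 4 rises. By role, 4 of 7 genes up to farnesyl diphosphate, 8 of 11 from squalene to cholesterol, 2 of 5 sterol control genes and 7 of 10 fatty acid genes fell.

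Among the mevalonate genes of the deficient line, IDI1, the isomerase that makes the reactive isoprenoid unit, had 90.6 and 96.9 CPM in resistant and 176 and 197 CPM in parental cells. Both resistant libraries lay below both parental ones. IDI1 fell (log2 fold change -0.99 ± 0.08, SE, edgeR adjusted p = 2.07e-06; GC-corrected -0.71). MVD, the decarboxylase that ends the mevalonate steps, had 81.3 and 48.6 CPM in resistant and 28.7 and 24.6 CPM in parental cells, and PMVK, the kinase before it, had 44.9 and 37.3 CPM in resistant and 22.5 and 20.8 CPM in parental cells. The groups did not overlap for either gene, and the first resistant library was the higher one in both. MVD rose by 1.28 ± 0.22 (edgeR adjusted p = 0.000509) and PMVK by 0.92 ± 0.15 (edgeR adjusted p = 0.000345). GC-corrected, the rises were 0.30 ± 0.09 for MVD (edgeR adjusted p = 0.00605) and 0.38 ± 0.08 for PMVK (edgeR adjusted p = 0.000806). Without resistant deficient replicate 1, MVD rose by 0.84 in the uncorrected fit. ACAT2, HMGCS1 and FDPS, which encode acetoacetyl-CoA thiolase, HMG-CoA synthase and farnesyl diphosphate synthase, fell with log2 fold changes of -0.64, -0.47 and -0.61 (GC-corrected -0.54, -0.18 and -0.71, all past the threshold). MVK, the kinase that first phosphorylates mevalonate, did not pass as deposited (-0.35 ± 0.16, edgeR adjusted p = 0.0819) and had the largest GC-corrected fall of these genes (-0.98 ± 0.09, 4.59e-08). Its fall also passed when resistant deficient replicate 1 was left out (-0.53, 0.0180), or either resistant proficient library (-0.38 in each).

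In the segment from squalene to cholesterol, LSS, which closes the sterol ring, was the single gene that rose in the deficient line. LSS had 134 and 98.6 CPM in resistant and 66.5 and 61.4 CPM in parental cells, again without overlap. The log2 fold change was 0.86 ± 0.13 (edgeR adjusted p = 0.000269) and 0.42 ± 0.07 GC-corrected (edgeR adjusted p = 2.63e-05). SC5D, a sterol desaturase near the end of the route, had the largest fall of this segment in the uncorrected fit, with 128 and 142 CPM in resistant and 239 and 269.9 CPM in parental cells (-0.92 ± 0.09, edgeR adjusted p = 9.12e-06; GC-corrected -0.58). FDFT1, SQLE, CYP51A1, MSMO1, NSDHL, HSD17B7 and DHCR7 fell with log2 fold changes of -0.61 to -0.36. GC-corrected, those other than MSMO1 fell too, from -0.23 for CYP51A1 to -0.76 for DHCR7. MSMO1, the sterol methyl oxidase, no longer passed when GC-corrected (-0.02 ± 0.04, edgeR adjusted p = 0.698). TM7SF2, a sterol reductase of 62.7% GC, gave 0.06 ± 0.15 (edgeR adjusted p = 0.746) as deposited, with overlapping libraries, and passed as a fall when GC-corrected (-0.78 ± 0.07, edgeR adjusted p = 4.69e-08).

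In the deficient line, SREBF1 and SREBF2 gave no call that held in both fits. SREBF1 had 53.0 and 34.3 CPM in resistant and 32.0 and 26.0 CPM in parental deficient cells, and its second resistant library stood near the first parental one. SREBF1 passed as a rise of 0.59 ± 0.19 (edgeR adjusted p = 0.0204), which was 0.22 without resistant deficient replicate 1 (0.264), 0.41 without parental deficient replicate 2 (0.185) and 0.56 with the 2 groups alone (0.0584), and the GC-corrected value was a fall of the opposite sign (-0.32 ± 0.08, edgeR adjusted p = 0.00235). SREBF2 had 213 and 169.6 CPM in resistant and 162 and 157 CPM in parental cells, with a log2 fold change of 0.26 ± 0.11 that did not pass (edgeR adjusted p = 0.0723; GC-corrected -0.09, 0.152). It passed as a rise without resistant deficient replicate 2 (0.38, 0.00483), without a filter on low counts (0.24, 0.00429) and in DESeq2 (0.27, 0.0367). SCAP, the sterol-sensing escort of SREBPs, had 76.7 and 60.1 CPM in resistant and 49.6 and 43.5 CPM in parental cells. Its groups did not overlap, and it rose by 0.55 ± 0.15 (edgeR adjusted p = 0.00812), a call lost without resistant deficient replicate 1 (0.34, 0.0635), without parental deficient replicate 2 (0.43, 0.0934) and with the GC trend removed (0.02, 0.861). INSIG1 had 93.7 and 99.1 CPM in resistant and 119 and 119.8 CPM in parental cells, a fall of -0.31 ± 0.07 without overlap (edgeR adjusted p = 0.00238) that did not pass GC-corrected (-0.09 ± 0.05, 0.126). STARD4, which carries cholesterol between membranes, fell with -0.60 ± 0.09 (edgeR adjusted p = 0.000292; GC-corrected -0.30).

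Among the fatty acid genes of the deficient line, ACSS2, ACSS3 and ELOVL6 had the largest falls. ACSS2, which makes cytosolic acetyl-CoA from acetate, had 33.7 and 33.9 CPM in resistant and 132 and 126 CPM in parental cells. Every resistant value was far below every parental one, a log2 fold change of -1.93 ± 0.08 (edgeR adjusted p = 3.00e-08; GC-corrected -2.02). ACSS3, its mitochondrial relative, had 0 counts in both resistant libraries and 311 and 386 counts in the parental ones, which is at least 222-fold lower with a floor of 3 counts over the group (edgeR adjusted p = 1.05e-07). ELOVL6, which elongates saturated chains of medium length, had 9.15 and 9.11 CPM in resistant and 27.2 and 35.2 CPM in parental cells. The groups did not overlap, and ELOVL6 fell (-1.77 ± 0.13, edgeR adjusted p = 1.39e-06; GC-corrected -1.55).

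FASN, the fatty acid synthase, moved the other way, with a wide spread. FASN had 603 and 279 CPM in resistant and 177 and 137 CPM in parental deficient cells. Both resistant libraries were above both parental ones, but they differed from each other more than the second did from the parental libraries. The log2 fold change was 1.49 ± 0.27 (edgeR adjusted p = 0.000825), 0.80 without resistant deficient replicate 1, and 0.32 ± 0.10 GC-corrected (edgeR adjusted p = 0.00937). On the GC-corrected log2 CPM scale, FASN had 7.76 and 7.26 in resistant and 7.28 and 7.13 in parental deficient cells. After correction the groups therefore overlapped, with the second resistant library below the first parental one. FASN had the highest transcript GC content of the 33 genes, 65.3%, and all 6 genes that rose in this line lay between 58.3% and 65.3%. The desaturase genes SCD, FADS1 and FADS2 fell with log2 fold changes of -0.34, -0.60 and -0.46, and GC-corrected with -0.13, -0.85 and -0.76. ACLY and ACACA, which supply cytosolic acetyl-CoA and malonyl-CoA, did not pass (0.04 and -0.06). GC-corrected, ACLY passed at -0.10 and ACACA at 0.11 (edgeR adjusted p = 0.0217 and 0.0247), each with the sign opposite to the uncorrected value.

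**Figure D2:**
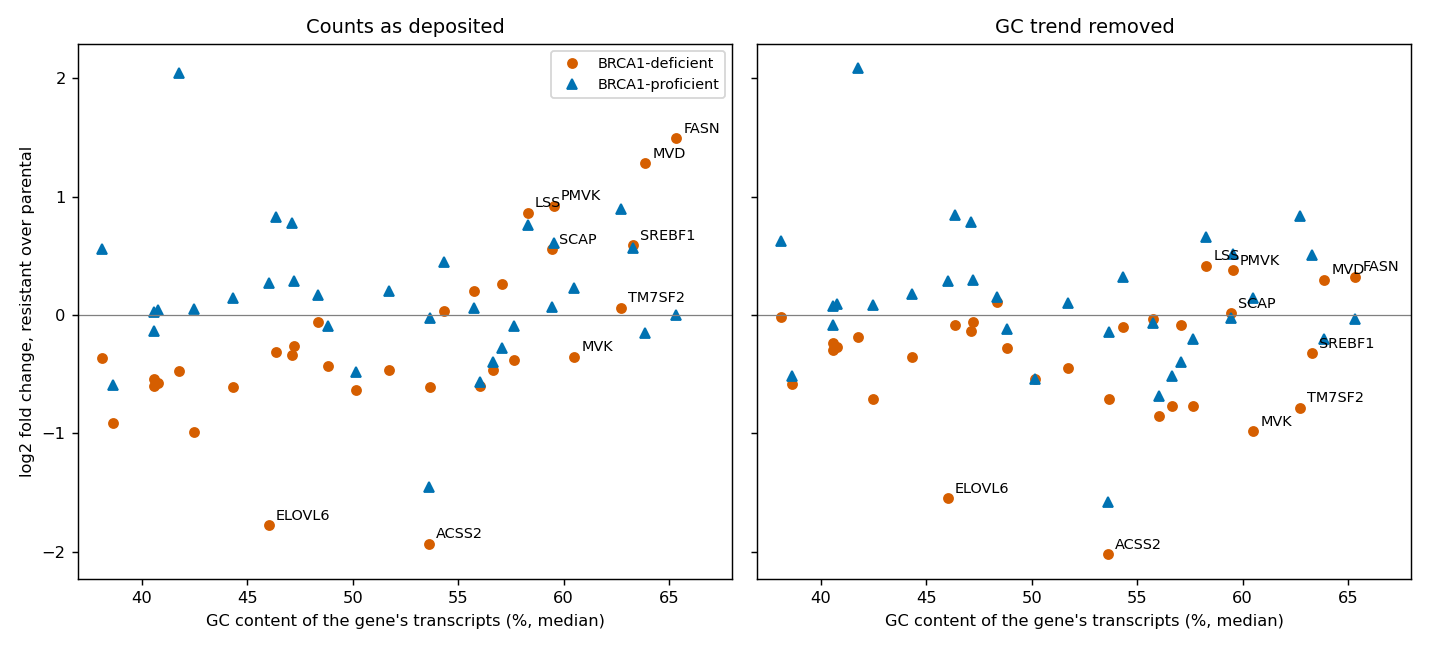
Log2 fold change of resistant over parental cells against median transcript GC content (%) for each gene other than ACSS3, in the BRCA1-deficient (circles) and BRCA1-proficient (triangles) line, with counts as deposited (left) and with the GC trend removed (right). The deficient line's risers, FASN and MVD highest, lie at the GC-rich end on the left, and their values are smaller on the right.

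In the BRCA1-proficient line the same genes split in both directions. Of the 33 genes, 11 rose, 6 fell and 16 did not pass, with a median log2 fold change of 0.06, against -0.00 over all genes tested, of which 25.9% rose and 27.8% fell. With the GC trend removed, 12 rose and 10 fell, against 29.6% and 33.8% of all genes, and all 11 rises and all 6 falls of the uncorrected fit passed there with the same sign. The added calls were the rise of ELOVL6 and the falls of FDPS, FDFT1, DHCR7 and SREBF2. By role, the rises were 2 of 7 mevalonate genes, 3 of 11 genes from squalene to cholesterol, 2 of 5 sterol control genes and 4 of 10 fatty acid genes.

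HMGCS1, the cytosolic HMG-CoA synthase at the entry to the mevalonate route, had the largest rise of the set in the proficient line. HMGCS1 had 776 and 860.3 CPM in resistant and 209 and 188 CPM in parental proficient cells. Both resistant libraries were also above every library of the deficient line. HMGCS1 rose by 2.04 ± 0.08 (edgeR adjusted p = 7.01e-09), and 2.08 ± 0.04 GC-corrected. PMVK rose by 0.61 ± 0.16 (edgeR adjusted p = 0.00724; GC-corrected 0.52), a call lost without resistant proficient replicate 1 (0.47, 0.0563) or parental proficient replicate 1 (0.51, 0.0566). The other mevalonate genes gave -0.48 for ACAT2, which fell, and -0.15 to 0.23 for MVK, MVD, IDI1 and FDPS, which did not pass. Without resistant proficient replicate 2, MVK passed as a rise (0.50, edgeR adjusted p = 0.0244).

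Of the genes from squalene to cholesterol, TM7SF2 had 45.5 and 37.1 CPM in resistant and 21.5 and 22.9 CPM in parental proficient cells, LSS had 34.4 and 28.5 CPM in resistant and 18.5 and 18.6 CPM in parental cells, and MSMO1 had 207 and 227 CPM in resistant and 149 and 146 CPM in parental cells. None of the 3 genes had overlapping groups. TM7SF2 rose by 0.90 ± 0.15 (edgeR adjusted p = 0.000453), LSS by 0.76 ± 0.15 (0.00103) and MSMO1 by 0.55 ± 0.07 (6.44e-05), with GC-corrected rises of 0.84, 0.66 and 0.63. SC5D was the member of this segment that fell, with 277 and 305 CPM in resistant and 459 and 417 CPM in parental cells (-0.59 ± 0.09, edgeR adjusted p = 0.000151; GC-corrected -0.52). FDFT1, SQLE, CYP51A1, NSDHL, HSD17B7, EBP and DHCR7 did not pass, with log2 fold changes of -0.10 to 0.20. NSDHL, the highest of them, passed as a rise without either resistant deficient library or parental deficient replicate 2 (0.25 in each).

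INSIG1, the sterol-responsive brake on SREBP release, had 112 and 119 CPM in resistant and 66.2 and 64.5 CPM in parental proficient cells. The resistant libraries were close to each other and far above the parental ones, a rise of 0.83 ± 0.07 (edgeR adjusted p = 1.96e-06; GC-corrected 0.85). SREBF1 had 21.4 and 17.8 CPM in resistant and 12.4 and 14.2 CPM in parental cells. It rose by 0.56 ± 0.20 (edgeR adjusted p = 0.0348; GC-corrected 0.51), a call lost without resistant proficient replicate 1 (0.47, 0.151), parental proficient replicate 1 (0.50, 0.149) or parental proficient replicate 2 (0.66, 0.0709). SREBF2 had 147 and 121 CPM in resistant and 154 and 172 CPM in parental cells, which did not pass as deposited (-0.28 ± 0.11, edgeR adjusted p = 0.0568) and fell when GC-corrected (-0.40 ± 0.05, 2.56e-06). The fall also passed when the fit left out resistant deficient replicate 1 (-0.24, 0.0253), resistant deficient replicate 2 (-0.24, 0.0263) or resistant proficient replicate 1 (-0.38, 0.0356), had no filter (-0.25, 0.00344) or held the 2 groups alone (-0.28, 0.00530). SCAP had 38.5 and 29.6 CPM in resistant and 29.6 and 35.4 CPM in parental cells, with overlapping groups and a log2 fold change of 0.07 (edgeR adjusted p = 0.734).

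SCD, which introduces the double bond of monounsaturated fatty acids, was the most abundant of the 33 messages by counts, at 2437 and 2518 CPM in resistant and 1477 and 1419 CPM in parental proficient cells. The groups did not overlap, and SCD rose by 0.77 ± 0.06 (edgeR adjusted p = 1.22e-06; GC-corrected 0.79). ACLY rose by 0.45 ± 0.06 (edgeR adjusted p = 0.000126; GC-corrected 0.32) and ELOVL5, which elongates polyunsaturated chains, by 0.28 ± 0.07 (0.00618; 0.29), the second a call lost without parental proficient replicate 2 (0.25, 0.0624). ACACA passed narrowly at 0.16 (edgeR adjusted p = 0.0447; GC-corrected 0.15, 0.00312), a call lost without parental deficient replicate 1 (0.16, 0.0790), resistant proficient replicate 2 (0.19, 0.0541) or parental proficient replicate 2 (0.11, 0.285). FASN had 64.7 and 53.5 CPM in resistant and 53.8 and 64.3 CPM in parental cells, overlapping groups with a log2 fold change of 0.00 ± 0.28 (edgeR adjusted p = 0.999; GC-corrected -0.03).

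ACSS2 and ACSS3 fell in the proficient line as well. ACSS2 had 75.8 and 66.7 CPM in resistant and 190.1 and 201 CPM in parental cells (-1.45 ± 0.08, edgeR adjusted p = 7.30e-08; GC-corrected -1.58). ACSS3 had 7 and 4 counts in resistant and 207 and 226 counts in parental libraries, or 0.243 and 0.167 CPM in resistant and 8.35 and 7.81 CPM in parental cells (-5.25 ± 0.28, edgeR adjusted p = 2.16e-07). Resistant and parental values lay far apart for both genes. FADS1, a desaturase of polyunsaturated fatty acids, had 154 and 157 CPM in resistant and 234 and 227 CPM in parental cells (-0.57 ± 0.06, edgeR adjusted p = 1.34e-05; GC-corrected -0.69). FADS2, its partner, fell with -0.40 ± 0.11 (edgeR adjusted p = 0.00753; GC-corrected -0.52), a call lost without resistant proficient replicate 2 (-0.20, 0.109) or parental proficient replicate 2 (-0.33, 0.0717).

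**Figure D3:**
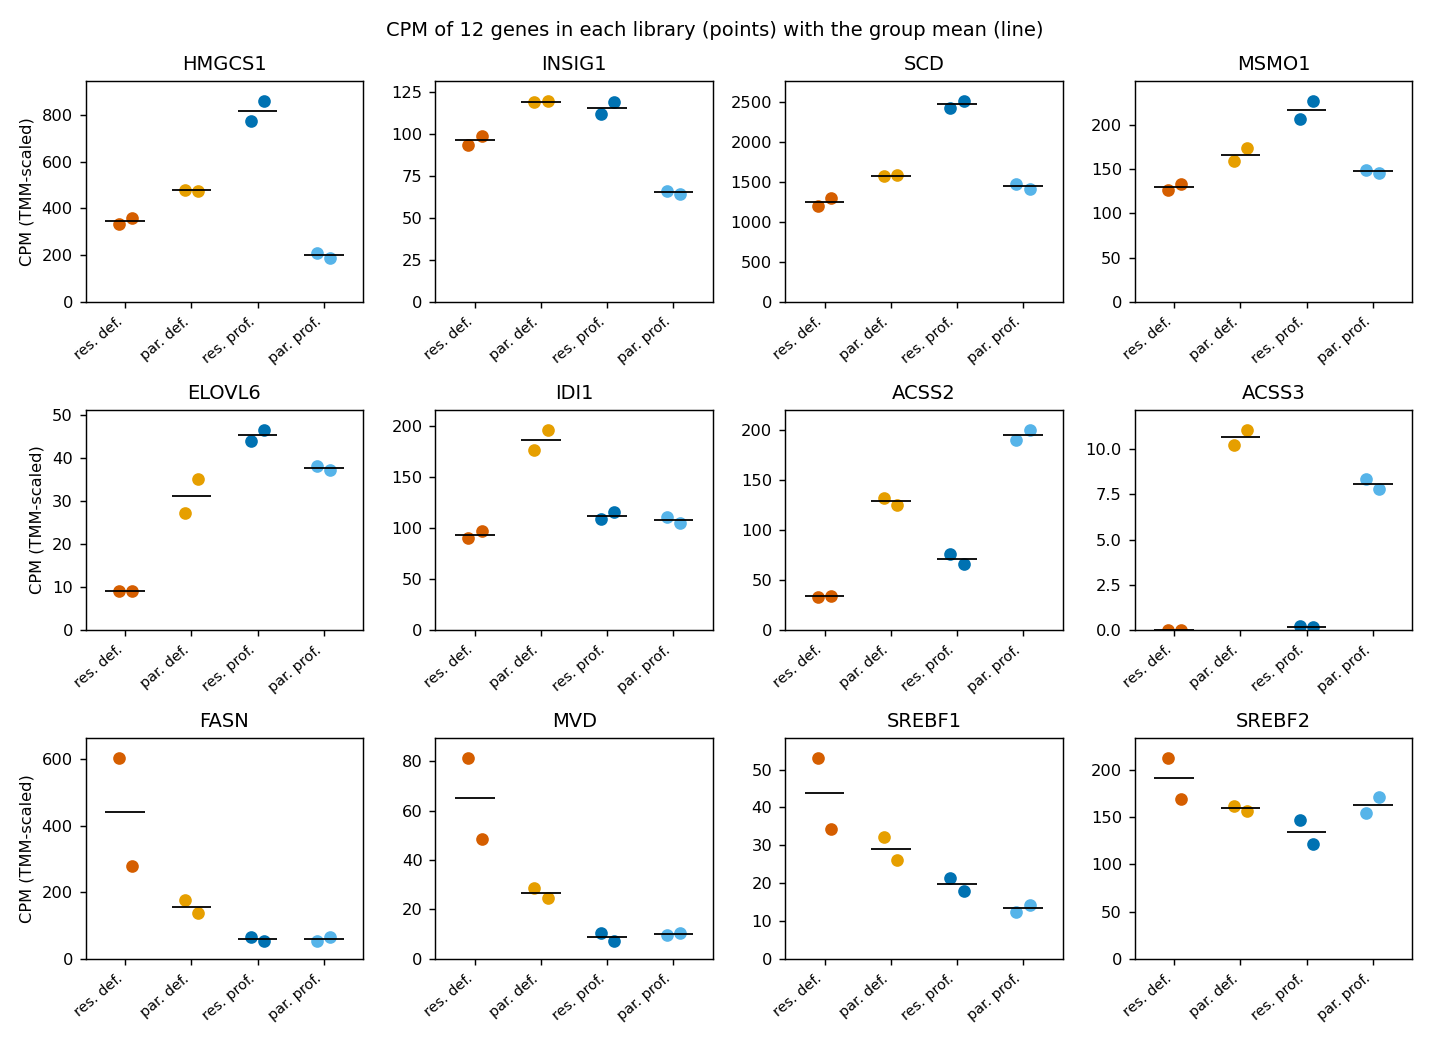
CPM (scaled by TMM, no GC correction) of 12 genes in the 2 libraries of each group (points) with the group mean (line), each axis starting at 0. HMGCS1, INSIG1, SCD and MSMO1 are above their parental level in resistant proficient cells and below it in resistant deficient cells, while ACSS2 and ACSS3 are low in both resistant groups.

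The difference between the 2 resistance responses was tested as proficient minus deficient, so that a positive value means a higher fold change in the proficient line. It passed for 22 of the 33 genes, 19 of them positive and 3 negative, with a median of 0.46, against -0.08 over all genes tested, of which 21.4% were positive and 25.3% negative (46.7% in all). The positive difference of TM7SF2 was larger when GC-corrected (1.62, against 0.83 as deposited). MVK (1.12, against 0.58), DHCR7 (0.56, against 0.29), SREBF1 (0.83, against -0.03) and FADS2 (0.25, against 0.06) passed as positive there and not as deposited. Without a filter on low counts, MVK (0.63, edgeR adjusted p = 0.00414) and DHCR7 (0.34, 0.00503) passed too, and MVK also in DESeq2 (0.60, DESeq2 adjusted p = 0.0430). The ACACA difference did not pass as deposited (0.22, edgeR adjusted p = 0.0592) or GC-corrected (0.04, 0.565). It did pass with RLE factors (0.25, edgeR adjusted p = 0.0296) and in DESeq2 (0.25, DESeq2 adjusted p = 0.0359). GC-corrected, 22 were positive and 2 negative (median 0.37, against 24% and 31.6% of all genes), and 18 positive and 2 negative calls were shared by both fits. Positive differences made up 3 of 7 mevalonate genes, 8 of 11 genes from squalene to cholesterol, 2 of 5 sterol control genes and 6 of 10 fatty acid genes. IDI1, FDPS, FDFT1, SQLE, CYP51A1, NSDHL, HSD17B7, STARD4 and ELOVL6 had a positive difference with a fall that passed in the deficient line alone, and their proficient log2 fold changes ran from -0.14 for STARD4 to 0.27 for ELOVL6.

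HMGCS1 had the largest difference among the synthesis genes with counts in all libraries, 2.51 ± 0.11 (edgeR adjusted p = 3.07e-08), from 2.04 in the proficient and -0.47 in the deficient line, and 2.26 ± 0.06 when GC-corrected. ELOVL6 followed with 2.04 ± 0.18 (edgeR adjusted p = 5.58e-06; GC-corrected 1.84). In resistant proficient cells ELOVL6 had 44.0 and 46.6 CPM, against 38.1 and 37.2 CPM in parental proficient cells, a change that did not pass in that line (0.27 ± 0.12, edgeR adjusted p = 0.0809) but did when GC-corrected (0.29, 0.0103), without either resistant deficient library (0.31 in each) and without either parental deficient library (0.26 and 0.31), so that most of the difference lay in the deficient line's fall. INSIG1 differed by 1.13 ± 0.10 (edgeR adjusted p = 4.78e-06; GC-corrected 0.93) and SCD by 1.11 ± 0.08 (2.23e-06; 0.92). HMGCS1 and SCD fell in deficient and rose in proficient cells in both fits.

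The 3 negative differences were those of MVD, FASN and SREBF2. MVD differed by -1.44 ± 0.33 (edgeR adjusted p = 0.00439), by -0.95 without resistant deficient replicate 1, and by -0.50 ± 0.14 GC-corrected (0.00607). In resistant proficient cells MVD had 10.5 and 7.29 CPM, against 9.43 and 10.4 CPM in parental proficient cells, with overlapping groups. FASN differed by -1.49 ± 0.39 (edgeR adjusted p = 0.00934), by -0.76 without resistant deficient replicate 1, and its GC-corrected difference did not pass (-0.36 ± 0.15, 0.0572). SREBF2 differed by -0.54 ± 0.16 (edgeR adjusted p = 0.0173; GC-corrected -0.31, 0.00139). That call was lost without resistant deficient replicate 1 (-0.30, 0.0838), parental deficient replicate 2 (-0.44, 0.0960), resistant proficient replicate 2 (-0.34, 0.120) or parental proficient replicate 2 (-0.46, 0.0789). For SREBF1 the difference was -0.03 ± 0.28 as deposited (edgeR adjusted p = 0.952) and 0.83 ± 0.12 GC-corrected (1.70e-05).

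**Figure D4:**
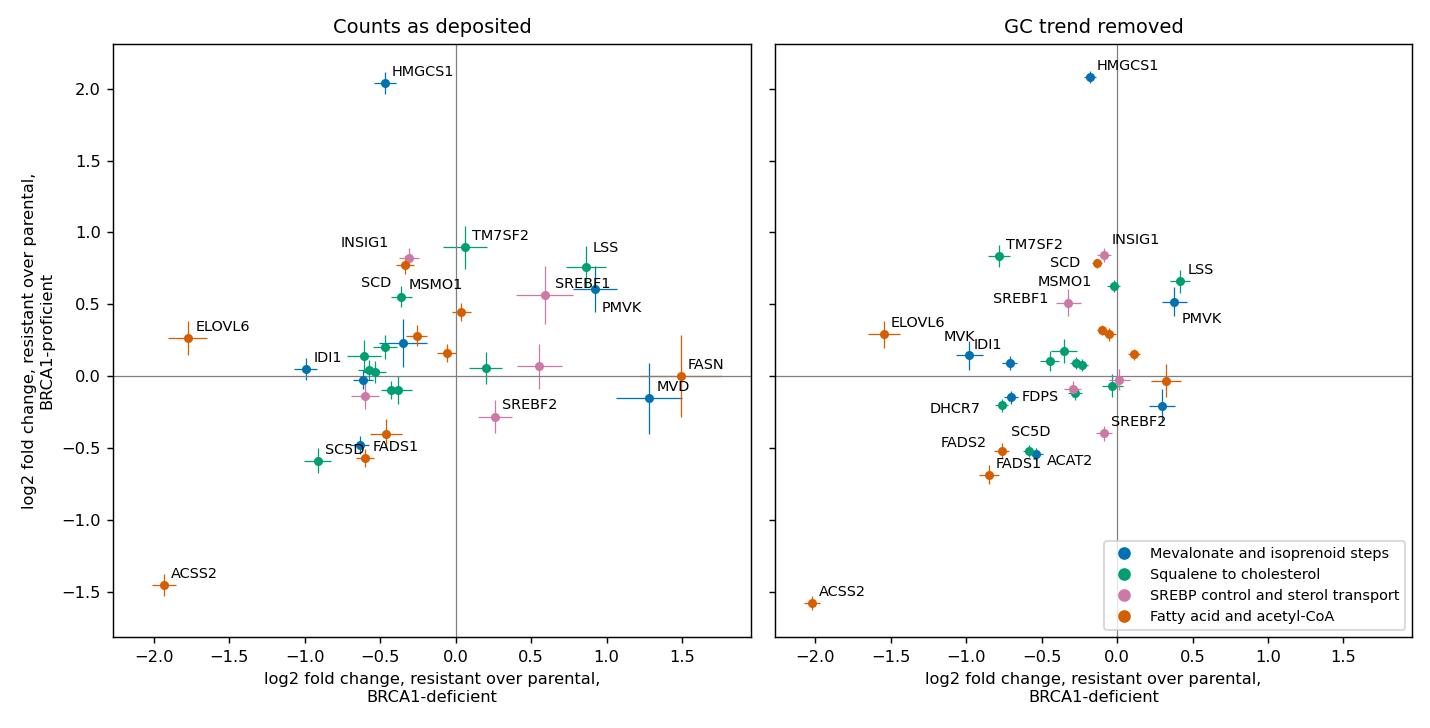
Log2 fold change of resistant over parental cells in the BRCA1-proficient line (vertical) against the BRCA1-deficient line (horizontal), with SE bars, coloured by role, for counts as deposited (left) and with the GC trend removed (right). ACSS3 is not drawn. HMGCS1 stands alone at the top, ACSS2 lies at the bottom left, and FASN and MVD lie at the right edge of the left panel and nearer to 0 in the right one.

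The resistance comparisons of the 2 lines share no library, so their calls were set side by side. Of the 33 genes, 6 fell in both lines (18.2%, against 13.2% of all genes tested), namely ACAT2, SC5D, FADS1, FADS2, ACSS2 and ACSS3. PMVK, LSS and SREBF1 rose in both (9.09%, against 10.2%). HMGCS1, MSMO1, INSIG1, SCD and ELOVL5 fell in deficient and rose in proficient cells (15.2%, against 5.02%), and 0 genes did the reverse, against 4.28% of all genes. The fall of ELOVL5 was lost without parental deficient replicate 2 (-0.22, edgeR adjusted p = 0.0706) and when GC-corrected (-0.06, 0.312). GC-corrected, these counts were 9, 3, 6 and 0, against 14.2%, 13.2%, 6.04% and 8.25% of all genes, and the genes behind them changed in part. Of the genes that fell in deficient and rose in proficient cells, HMGCS1 and SCD stood in both counts, MSMO1, INSIG1 and ELOVL5 did not pass in the deficient line, and TM7SF2, SREBF1, ACLY and ELOVL6 were added. ACACA took the place of SREBF1 among the genes that rose in both lines, and FDPS, FDFT1 and DHCR7 joined the 6 that fell in both. Across the 33 genes the rank correlation of the 2 log2 fold changes was 0.46 (0.41 GC-corrected), against 0.27 over all 16221 genes, a description in which genes are not independent.

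The parental lines also differed in these genes. They were at unlike passages, 29 for deficient and 10 for proficient cells, so BRCA1 state and passage cannot be told apart here. In parental proficient against parental deficient cells, 5 of the 33 genes were higher, 19 were lower and 9 did not pass (median log2 difference -0.52, against 0.00 over all genes, of which 32.3% were higher and 30.1% lower). GC-corrected, 8 were higher and 22 lower, against 33.5% and 30.8% of all genes, with 5 and 17 calls shared by both fits. This comparison shares its libraries with both resistance comparisons, so its values are set beside theirs without a test of their relation. HMGCS1 was lower in parental proficient cells (-1.26 ± 0.08, edgeR adjusted p = 1.67e-07; GC-corrected -1.60), as were LSS (-1.78 ± 0.14, 1.39e-06; -1.27), INSIG1 (-0.87 ± 0.07, 1.12e-06; -1.06) and FASN (-1.41 ± 0.28, 0.00113; -0.63). Parental proficient cells held the lowest HMGCS1 and INSIG1 levels of the 4 groups. INSIG1 in resistant proficient cells, at 112 and 119 CPM, stood near parental deficient cells, at 119 and 119.8 CPM. The genes higher in parental proficient cells were ACAT2, CYP51A1, SC5D, STARD4 and ACSS2, with log2 differences of 0.23 to 0.89. The ACAT2 call was lost without parental deficient replicate 2 (0.18, edgeR adjusted p = 0.0911) or parental proficient replicate 1 (0.17, 0.118).

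Neighbouring steps of lipid metabolism were read from 5 further lists, given as counts in the uncorrected fit and then GC-corrected. The shares of all genes to set beside the uncorrected counts were 28.9% that rose and 27% that fell in resistant deficient cells, and 25.9% and 27.8% in resistant proficient cells. Those to set beside the GC-corrected counts were 31.9% that rose and 27.6% that fell in deficient cells, and 29.6% and 33.8% in proficient cells. Of 16 genes that move, store or sense cholesterol, 2 rose and 9 fell in resistant deficient cells (median -0.49), and 6 rose and 5 fell in resistant proficient cells (median 0.29). GC-corrected, 1 rose and 10 fell in deficient cells (median -0.32), and 5 rose and 5 fell in proficient cells (median 0.20). ABCA1, which exports cholesterol from cells, had 41.5 and 41.7 CPM in resistant and 3.99 and 5.12 CPM in parental proficient cells, a rise of 3.18 ± 0.15 (edgeR adjusted p = 4.04e-08), and fell in the deficient line (-0.44 ± 0.15, 0.0253). VLDLR, a lipoprotein receptor, and NPC2, which frees cholesterol from lysosomes, fell in deficient cells (-1.80 and -1.15) and rose in proficient cells (0.83 and 0.67). Each of these 3 genes kept both calls when GC-corrected. Of 11 genes that process or degrade SREBP and its partners, 2 rose and 7 fell in deficient cells (median -0.24) and 5 rose and 3 fell in proficient cells (median 0.16). GC-corrected, 2 rose and 4 fell in deficient cells (median -0.00), and 6 rose and 3 fell in proficient cells (median 0.18). MBTPS1, the protease that makes the first cut in SREBPs, rose in both lines (0.61 ± 0.06, edgeR adjusted p = 8.55e-06, in deficient and 0.85 ± 0.06, 4.34e-07, in proficient cells). LPIN1, a phosphatidate phosphatase, fell in deficient (-0.81) and rose in proficient cells (0.42). ERLIN2 also fell in deficient (-0.21, edgeR adjusted p = 0.0266) and rose in proficient cells (0.87, 1.72e-06). Its GC-corrected value in deficient cells did not pass (0.05, 0.353).

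Among 14 genes that use isoprenoids for prenylation, ubiquinone and dolichol, 4 rose and 4 fell in deficient cells (median 0.05), and 2 rose and 6 fell in proficient cells (median -0.23). The deficient shares were close to those of all genes, and GC-corrected counts were 7 and 3 in deficient (median 0.11) and 2 and 7 in proficient cells (median -0.25). FNTA, a subunit of the farnesyl and geranylgeranyl transferases, fell in proficient cells (-1.24 ± 0.08, edgeR adjusted p = 2.34e-07), as did GGPS1, which makes geranylgeranyl diphosphate (-1.08 ± 0.08, 1.34e-06). Both also fell in deficient cells, FNTA by -0.26 ± 0.08 (edgeR adjusted p = 0.0127) and GGPS1 by -0.45 ± 0.08 (0.000824). When GC-corrected, the deficient fall of GGPS1 passed (-0.16, 0.0192) and that of FNTA did not (-0.05, 0.392). RABGGTB, a subunit of the Rab prenyltransferase, gave a rise of 0.42 ± 0.07 in deficient cells (edgeR adjusted p = 0.000488) but a fall of -0.44 ± 0.07 in proficient cells (0.000291). Of 23 other fatty acid genes, 8 rose and 11 fell in deficient cells (median -0.35), and 9 rose and 7 fell in proficient cells (median 0.06). GC-corrected, 5 rose and 13 fell in deficient cells (median -0.22), and 11 rose and 8 fell in proficient cells (median 0.10). ACSS1, the mitochondrial acetyl-CoA synthetase, rose in both lines (0.81 ± 0.17, edgeR adjusted p = 0.00219, in deficient and 2.17 ± 0.16, 1.05e-06, in proficient cells), and ME1, which makes cytosolic NADPH, fell in both (-0.89 and -1.06). ACSL4 fell in deficient cells (-1.04 ± 0.09, edgeR adjusted p = 3.19e-06). In proficient cells ACSL4 did not pass as deposited (-0.17, 0.117) and passed as a fall when GC-corrected (-0.13, 0.0230). Of 12 genes of fatty acid oxidation, 7 rose and 3 fell in deficient cells (median 0.25), and 5 rose and 2 fell in proficient cells (median 0.22). CPT1A, which admits fatty acids to mitochondria, rose in both lines, by 0.25 ± 0.06 (edgeR adjusted p = 0.00688) in deficient and 1.06 ± 0.06 (2.05e-07) in proficient cells. HADHB fell in deficient (-0.32 ± 0.08, edgeR adjusted p = 0.00377) and rose in proficient cells (0.50 ± 0.08, 0.000191). The deficient fall of HADHB did not pass when GC-corrected (-0.07, 0.203). ACAA2 rose in deficient cells (0.43 ± 0.07, edgeR adjusted p = 0.000291). In proficient cells ACAA2 did not pass as deposited (0.15, 0.0905) and passed as a rise when GC-corrected (0.17, 0.0115). GC-corrected, 5 oxidation genes rose and 1 fell in deficient cells (median 0.02), and 7 rose and 3 fell in proficient cells (median 0.18).

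Some of these values are uncertain for reasons of counting. Neither the annotation nor the handling of strand and of reads with several matches is given in the sources used here. Counts of HSD17B7 and CYP51A1, which have near-identical pseudogenes, and of ACAT2, whose end overlaps TCP1 on the opposite strand, may therefore be split or shared.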

How the data were processed

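Total RNA of 8 libraries was measured by RNA-seq. The authors deposited 1 table of raw counts, not normalised, with 1 row per gene symbol. The submitters' processing notes name build GRCh37, DESeq2 1.24.0, Trimmomatic 0.39, Subread 2.0.1 and featureCounts, without their roles. Groups were taken from the sample titles, and 0 columns were left unused. The title of resistant deficient replicate 2 reads Olred instead of Olres, and it was placed in that group from the rest of its title.

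Differences in counts were tested in R 4.3.3 by edgeR 4.0.16 (quasi-likelihood F test), with TMM factors, filterByExpr (16221 genes) and 1 fit of all 8 libraries without covariates (4 residual degrees of freedom). P-values were adjusted by Benjamini-Hochberg over all genes tested, and a call needed an adjusted p under 0.05. An SE is the log2 fold change divided by the square root of F. Levels are TMM-scaled CPM. The GC-corrected fit took offsets from a natural spline (5 degrees of freedom) of each library's log2 CPM deviations on median transcript GC content in GENCODE 29, known for 15665 genes tested and all 33 synthesis genes. Alternatives were RLE factors, library totals, no filter, at least 1 CPM in 2 libraries, DESeq2 1.42.0, the 2 groups alone, a replicate block, and each library left out. The GC-corrected fit with each library left out was added after seeing the data. The steps were tested on simulated data.

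The genes and lists were chosen with earlier results of these data known. Values per library were given for up to 4 genes per direction with the largest called fold change in each resistance comparison, up to 4 per direction with the smallest p in the difference, and SREBF1, SREBF2, SCAP and INSIG1. For further lists, 3 genes each were taken. Other genes named with a fold change or p, and the library values of LSS and MSMO1 in the proficient line, were chosen after their values were seen. Counting floors cover counting error only.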

Additional observations from a re-analysis of the deposited data

Results flagged for a closer look

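The resistance effect differed between the lines for 22 of the 33 genes, by an interaction test on all 8 libraries (edgeR, adjusted p under 0.05). Given as the log2 difference, proficient minus deficient, the values were 2.51 for HMGCS1, -1.44 for MVD, 1.04 for IDI1 and 0.59 for FDPS among the mevalonate genes. From squalene to cholesterol they were 0.34 for FDFT1, 0.62 for SQLE, 0.56 for CYP51A1, 0.83 for TM7SF2, 0.91 for MSMO1, 0.67 for NSDHL, 0.75 for HSD17B7 and 0.33 for SC5D. Among sterol control genes they were 1.13 for INSIG1, -0.54 for SREBF2 and 0.46 for STARD4. Among fatty acid genes they were 0.41 for ACLY, -1.49 for FASN, 1.11 for SCD, 0.54 for ELOVL5, 2.04 for ELOVL6 and 0.48 for ACSS2. For ACSS3 the adjusted p was 0.00115, and its fitted difference is not given because 1 group was at 0 counts. The differences of SC5D and FASN did not pass with the GC trend removed. Those of FDFT1 (0.28, adjusted p = 0.0575), STARD4 (0.44, 0.0551) and SC5D (0.26, 0.179) did not pass without parental proficient replicate 2, nor did that of SC5D without parental deficient replicate 2 (0.31, 0.0935) or resistant proficient replicate 2 (0.32, 0.0691). Groups of 2 libraries were not tested for outlying samples.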

How the results depend on the processing

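Of 2211 values of single genes over the alternatives, 1959 kept their direction and side of the threshold, 118 came to pass, 46 no longer passed, 15 reversed and 73 changed sign without passing. All 15 reversals came with the GC trend removed. Without and with the replicate block in that fit, the deficient resistance effect was -0.78 for TM7SF2, -0.32 for SREBF1, -0.10 for ACLY and 0.11 for ACACA in either. The difference was 0.83 for SREBF1 in both, and 0.24 for LSS with the block. The parental difference was 0.19 for TM7SF2 in both, and for SCAP it was 0.064 without and 0.066 with the block. Genes that fell in resistant proficient cells numbered 10 in both GC-corrected fits, against 6, and genes higher in parental proficient cells 8, against 5. The cause of these shifts beyond the correction itself was not tested.

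Leaving out 1 library gave 20 to 22 falls and 4 to 7 rises in deficient cells, 5 to 7 falls and 8 to 13 rises in proficient cells, 16 to 22 positive and 2 to 4 negative differences, and 16 to 22 lower and 4 to 5 higher genes between parental lines. GC-corrected rises in deficient cells numbered 3 to 5, with 3 without resistant deficient replicate 1 or parental deficient replicate 2.

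Whether replicate numbers pair the samples is not known, and the labels give no shared batch. Deviations of same-numbered libraries correlated at -0.132 to 0.212 over the pairs of groups, which cannot settle the question. With the replicate block, 22 genes fell and 7 rose in deficient cells, and 7 fell and 10 rose in proficient cells. The block moved the adjusted p of ACACA in proficient cells to 0.0583, and those of MVK and SREBF2 in deficient cells to 0.0280 and 0.0433 and of SREBF2 in proficient cells to 0.0249. The GC-corrected FASN difference (-0.36) passed with the block and not without it (0.0572). With 2 libraries a group and 4 residual degrees of freedom, small differences may go undetected, as may changes in ACSS3 below its floor.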
